A study of Mus musculus with 12 samples.

Results

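The 9 late neutrophil genes Ltf, Ngp, Camp, S100a8, S100a9, Lcn2, Cd177, Fpr2 and Chi3l3 were taken from the RNA-seq table of fetal mouse liver by their gene symbol, and all 9 of 9 were among its 30743 rows. The libraries came from whole livers of male C57BL/6J fetuses at 15 ± 0.5 dpc (days post coitum), 6 from dams on the control diet (13.5 kcal% fat) and 6 from dams on the high-fat diet (HFD, 60 kcal% fat), which the dams ate for 12 to 14 weeks. Messenger RNA was selected by its polyA tail, and the labels name no litter, so livers of 1 group may share a dam. The levels below are the authors' average over all 12 livers, in log2 CPM (counts of reads relative to the total of a library). That average covers both diets, has no standard deviation, and gives no comparison of HFD with control, so none was made here; levels in individual livers were not analysed here. A difference between 2 genes therefore has no replicate error beside it and no test. In whole tissue, fewer cells of a type and less RNA per cell cannot be told apart.

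Neutrophils fill their granules in waves as they mature in the marrow or, before birth, in the fetal liver. Primary (azurophil) granules, with myeloperoxidase and elastase, are made by promyelocytes, and specific and gelatinase granules, with lactoferrin, lipocalin 2 and cathelicidin, by later myelocytes and metamyelocytes. The calprotectin subunits S100a8 and S100a9 fill the cytosol of the maturing cell, and surface proteins such as the formyl peptide receptors appear towards the end. Fetal liver at this age is an organ of blood formation as well as of hepatocytes.

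By deposited level the 9 genes fell into a high, an intermediate and a near-lowest group. S100a8, Ngp, Ltf, Camp and Lcn2 lay between 114 and 478 CPM, Cd177, Chi3l3 and Fpr2 between 5.36 and 18.4 CPM, and S100a9 at 0.165 CPM, next to the table's lowest level of 0.152 CPM (log2 CPM -2.71), which 11091 rows share and which stands for a row without reads. Of the 9 genes, 8 (88.9%) were above 1 CPM, against 10171 of all 30743 rows (33.1%). The median over the genes was log2 CPM 6.84, against 0.2 over the 19652 rows with reads. Together they held 1277 CPM, 0.128% of the reads, and S100a8, Ngp, Ltf and Camp held 88.7% of that sum. Both diets and all livers enter these averages, so a few livers could carry much of a level.

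**Figure D1:**
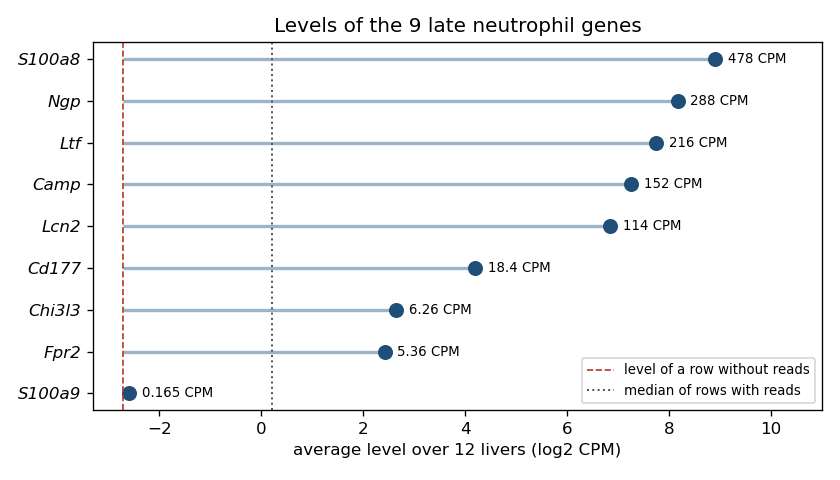
Average level of each of the 9 genes over 12 livers (x axis, log2 CPM, with CPM beside each point), in order of level. Points are the authors' averages and have no error bars; S100a9 sits beside the dashed line of a row without reads, and the other 8 genes lie to the right of the dotted median of rows with reads.

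Because the S100a8 and S100a9 levels were so unlike, and since Ngp, Camp and Ltf were the other leading genes, the start regions of these 5 genes are shown. Each sequence runs 5′ to 3′ on the gene's strand from 250 bases before to 50 bases after the start in RefSeq (GRCm38.p6), and capitals mark the letters TATAAA and TTGCNNAA (a core of sites for C/EBP factors, which act in granulocytes), with both strands searched for each.
S100a8 (chr3:90668821-90669120, + strand): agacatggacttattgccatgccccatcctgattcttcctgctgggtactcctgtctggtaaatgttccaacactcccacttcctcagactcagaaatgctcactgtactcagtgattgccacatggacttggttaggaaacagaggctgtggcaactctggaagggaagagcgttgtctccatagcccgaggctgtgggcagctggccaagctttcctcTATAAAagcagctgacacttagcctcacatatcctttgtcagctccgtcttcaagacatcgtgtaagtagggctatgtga
S100a9 (chr3:90695672-90695971, - strand): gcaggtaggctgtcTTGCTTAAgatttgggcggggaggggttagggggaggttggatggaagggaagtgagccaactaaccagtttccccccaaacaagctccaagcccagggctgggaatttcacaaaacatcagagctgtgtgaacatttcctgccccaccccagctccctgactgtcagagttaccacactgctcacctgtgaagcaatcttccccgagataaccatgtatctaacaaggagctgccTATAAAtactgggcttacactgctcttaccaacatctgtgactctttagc
Ngp (chr9:110419558-110419857, + strand): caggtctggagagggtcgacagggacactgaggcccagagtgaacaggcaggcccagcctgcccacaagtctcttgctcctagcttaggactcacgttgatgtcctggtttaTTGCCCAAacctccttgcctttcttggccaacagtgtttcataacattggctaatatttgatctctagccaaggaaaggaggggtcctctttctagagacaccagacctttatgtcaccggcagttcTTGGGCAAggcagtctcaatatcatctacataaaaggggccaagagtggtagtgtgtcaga
Camp (chr9:109849407-109849706, - strand): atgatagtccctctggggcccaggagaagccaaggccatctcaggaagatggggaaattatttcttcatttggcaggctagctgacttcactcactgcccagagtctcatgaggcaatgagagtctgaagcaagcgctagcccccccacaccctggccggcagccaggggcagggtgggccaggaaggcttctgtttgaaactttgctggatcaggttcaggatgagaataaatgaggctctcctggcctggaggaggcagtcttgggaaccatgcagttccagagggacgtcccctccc
Ltf (chr9:111019042-111019341, + strand): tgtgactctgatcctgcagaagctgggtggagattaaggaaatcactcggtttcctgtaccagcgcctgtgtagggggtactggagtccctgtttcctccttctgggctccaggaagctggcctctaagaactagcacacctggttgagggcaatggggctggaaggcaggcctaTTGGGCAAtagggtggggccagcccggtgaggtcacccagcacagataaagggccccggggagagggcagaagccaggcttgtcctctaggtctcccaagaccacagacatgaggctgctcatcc
TTGCNNAA was in 4 of the 9 start regions (S100a9, Ltf, Lcn2 and Ngp), against 3547 of 32851 start regions of all genes (10.8%). TATAAA was in 5 of 9 (S100a8, S100a9, Chi3l3, Cd177 and Fpr2), against 4473 of 32851 (13.6%). In S100a8 it began 30 bases before the RefSeq start, and in S100a9 at the RefSeq start itself. In the GENCODE M21 annotation S100a8 begins upstream of its TATAAA, at chr3:90668978, so the place depends on the annotated start. The Camp region held neither. A match is a run of letters and was not tested as a site.

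Calprotectin is a pair of small calcium-binding proteins, S100a8 and S100a9, that bind zinc and manganese and leave the cell with other antimicrobial proteins. S100a8 (ENSMUSG00000056054.9, chr3:90668978-90670035, + strand, GRCm38) had the highest level of the 9 genes, log2 CPM 8.90 or 478 CPM. Only 238 rows of the table lay above it, which put it at the 98.78 percentile of rows with reads (Wilson 95% interval 98.62 to 98.93). Such intervals, here and below, cover only the number of rows and not the spread of a level over livers. S100a9 (ENSMUSG00000056071.12, chr3:90692632-90695721, - strand) lies 22.6 kb from S100a8 on the opposite strand. Its level was log2 CPM -2.60 or 0.165 CPM, at the 6.671 percentile (6.331 to 7.028), with 18332 rows above it. The partners of the pair were thus at opposite ends of the deposited range, where S100a8 was 2898-fold higher. Whether the deposited value of S100a9 gives its RNA level was not tested.

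The lower end of the scale could be read in single reads. Just above the lowest level stood 1267 rows at 1 shared step, which is worth 0.00634 CPM (0.00625 to 0.00644) and was taken as about 1 read over all 12 livers. On that scale S100a9 stood 0.0125 CPM above the lowest level, or 1.98 steps, equal to about 2 reads in all (exact Poisson 95% interval 0.242 to 7.22, counting error only, for reads copied by PCR). The S100a8 excess came to 75299 steps. The ratio of the pair by reads was 37650, with an interval of 10422 to 310884 from the S100a9 count alone. S100a9 reads were thus close to the level of a row without reads, while S100a8 was among the most abundant genes.

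The annotation (GENCODE M21, on GRCm38, the build also named mm10) gives S100a9 as 2 transcripts that overlap almost entirely. Of its 522 exonic bases, 13 (2.49%) were in only 1 transcript: 10 at the 5′ end of the longer transcript (519 bases) and 3 at an exon junction of the shorter (512 bases). The stretches that differ are shown because they are all that sets the transcripts apart, with capitals for the bases found in only 1 of them.
S100a9 longer transcript, 5′ end: TATAAATACTgggcttacactgctcttacc
S100a9 shorter transcript, 5′ end: gggcttacactgctcttaccaacatctgtg
S100a9 longer transcript, junction: ctctttagccttgagcaagaagatggc
S100a9 shorter transcript, junction: ctctttagccttgAAGagcaagaagatggc
In the other 8 genes the share of exonic bases found in only 1 transcript ran from 39.8% in Ltf to 100% in Camp and Ngp, which have 1 transcript each, and it was 58.2% (404 of 694 bases) in S100a8.

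The same share moved with the level across the table. Of the 17868 genes annotated with 2 or more transcripts, 939 had under 5% of their exonic bases in only 1 transcript, and 58.1% of these stood at the lowest level and 15.5% above 1 CPM. Where 80 to 100% of exonic bases were in only 1 transcript (2182 genes), 11.5% stood at the lowest level and 64.5% above 1 CPM. The medians rose from log2 CPM -2.71 in the first bin to -1.97 at 10 to 20% (1788 genes), -0.08 at 40 to 60% (4096 genes) and 2.71 in the last. This comparison was chosen after the levels were seen, the annotation is later than the authors' counting, and the part of transcript overlap in the S100a9 level was not tested. Levels also varied within a bin: at 5 to 10% (826 genes), 21.9% stood above 1 CPM. Prss57, a serine protease of primary granules, was in that bin, with 5.35% such bases and 10.3 CPM. Padi4 was in the last bin, with 80.3%, and stood at the lowest level.

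**Figure D2:**
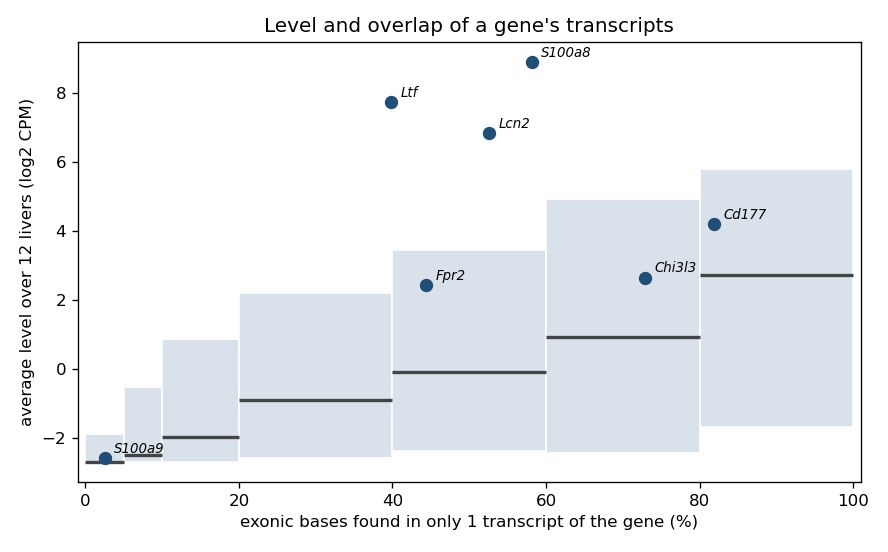
Average level over 12 livers (y axis, log2 CPM) against the share of a gene's exonic bases found in only 1 of its transcripts (x axis, percent), for genes with 2 or more transcripts. Boxes span the lower to the upper quartile of all such genes in each bin, dark lines are bin medians and points are the 7 late neutrophil genes with 2 or more transcripts; S100a9 lies at 2.49% and log2 CPM -2.60.

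Ngp (neutrophilic granule protein, related to cathelicidins and cystatins, ENSMUSG00000032484.8, chr9:110419747-110423012, + strand) was next after S100a8, at log2 CPM 8.17 or 288 CPM and the 97.62 percentile (97.4 to 97.83). Ltf, which encodes the iron-binding lactoferrin of specific granules (ENSMUSG00000032496.7, chr9:111019271-111042767, + strand), stood at 7.75 or 216 CPM, the 96.54 percentile (96.28 to 96.79). Camp, the cathelicidin antimicrobial peptide (ENSMUSG00000038357.10, chr9:109847379-109849617, - strand), stood at 7.25 or 152 CPM, the 94.82 percentile (94.51 to 95.13). These 3 genes lie within 1195 kb of chromosome 9. Lcn2, the siderophore-binding lipocalin 2 (ENSMUSG00000026822.14, chr2:32384633-32388252, - strand), stood at 6.84 or 114 CPM, the 92.77 percentile (92.4 to 93.13). Lcn2 was the only one of 10 lipocalin genes in the table above 1 CPM, and 7 of the 10 were at the lowest level. Hepatocytes can also make Lcn2, and the source of its reads was not tested.

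Chi3l3 (Ym1, now Chil3, ENSMUSG00000040809.10, chr3:106147554-106167564, - strand) is a chitinase-like protein of neutrophil granules and of some macrophages. It stood at log2 CPM 2.65 or 6.26 CPM, at the 67.6 percentile (66.94 to 68.25). The longest transcript of its neighbour Chil4 matched that of Chil3 at 94.7% of 1535 aligned bases, so reads may have been split or lost between the pair and the value is uncertain. Under its older symbol, Chi3l4 stood at log2 CPM -2.66. Of the 6 chitinase-like genes, Chi3l3 and Chi3l1 (12.5 CPM) were above 1 CPM. Chit1 was at the lowest level, with 0.0% of its exonic bases in only 1 transcript.

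Cd177, a surface and granule membrane protein that pairs with proteinase 3 in human neutrophils (ENSMUSG00000052212.6, chr7:24743983-24760311, - strand), stood at log2 CPM 4.20 or 18.4 CPM, the 77.14 percentile (76.54 to 77.72). Fpr2, a receptor for formyl peptides and other chemoattractants (ENSMUSG00000052270.7, chr17:17887824-17893952, + strand), was the lowest of the 9 apart from S100a9, at 2.42 or 5.36 CPM and the 66.22 percentile (65.56 to 66.88). Its relative Fpr1 had 6.95 CPM, and the other 4 of 6 receptor genes in the table were at the lowest level. Fpr3, one of these, had 3.79% of its exonic bases in only 1 transcript. Fpr3 was 88.5% identical to Fpr2 over 1126 aligned bases and Fpr1 75.0% over 893. Whether reads shared by Fpr2 and Fpr3 affected their values was not tested.

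**Figure D3:**
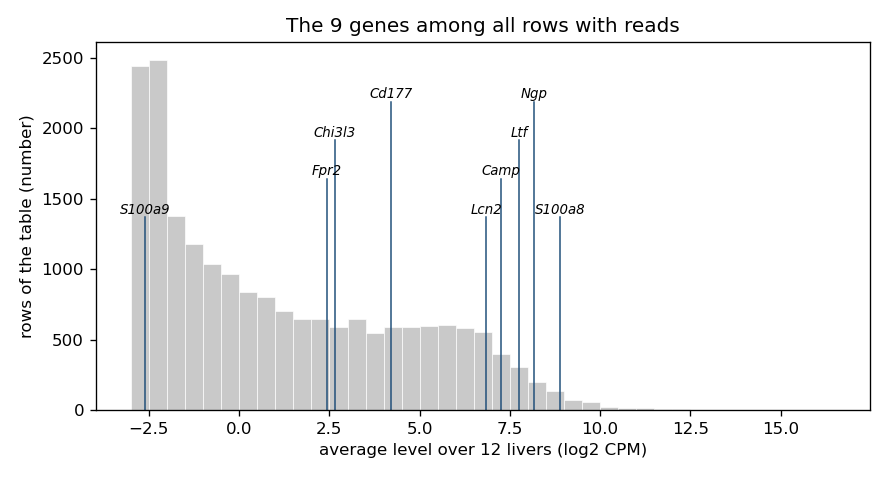
Histogram of the average level over 12 livers (x axis, log2 CPM) of the 19652 rows with reads (y axis, number of rows), with a vertical line at each of the 9 genes. S100a8, Ngp, Ltf, Camp and Lcn2 lie in the upper tail, Cd177, Chi3l3 and Fpr2 in the middle, and S100a9 in the lowest bin.

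Levels of different genes are comparable only per length, and CPM was therefore divided by the length of the longest transcript. That length was not adjusted for the share of exonic bases in only 1 transcript, 39.8% in Ltf and 100% in Ngp and Camp. On the scale of CPM per kilobase, S100a8 was first with 959 (a transcript of 498 bases), followed by Ngp with 235, Camp with 201, Lcn2 with 83.2 and Ltf with 78.7. Cd177 had 6.79, Fpr2 4.73, Chi3l3 4.07 and S100a9 0.318. Ltf thus moved from the third place by CPM to the fifth, because its transcript of 2743 bases is the longest of the 9. S100a8 was 4.08-fold above Ngp and 12.2-fold above Ltf per kilobase. With the shortest protein-coding transcript of each gene, which for Ltf has 233 bases, S100a8 stood 4.18-fold above Ngp but only 1.06-fold above Ltf, and Ltf 7.36-fold above Lcn2, so the place of Ltf per length depends on the transcript taken. The neighbours Ngp and Camp (1.17-fold), Lcn2 and Ltf (1.06-fold), and Cd177 and Fpr2 (1.44-fold) were closer, and with no spread over livers their order has no test. The median of the 9 genes was 78.7 CPM per kilobase, against 0.597 over rows with reads.

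Beside the 9 genes, 28 other late neutrophil genes were in the table, of 30 listed (Ly6g and Mcemp1 were not analysed here). Of these, 17 (60.7%) were above 1 CPM and 2 at the lowest level, with a median log2 CPM of 3.16. Lyz2, the lysozyme of granulocytes and macrophages, was the highest at 438 CPM. Padi4, which citrullinates histones, and Slpi were both at the lowest level, with 80.3% and 35.0% of their exonic bases in only 1 transcript. The matrix metalloproteinases Mmp8 and Mmp9 stood at 15.2 and 14.6 CPM, Itgb2l at 17.6 CPM and the chemokine receptor Cxcr2 at 8.61 CPM. Olfm4 (0.376 CPM), a specific granule protein, and Retnlg (0.356 CPM) were well below, with 48.0% and 100% of their exonic bases in only 1 transcript. The integrin chain Itgam (0.248 CPM), Itgb2 (0.171 CPM) and the growth factor receptor Csf3r (0.209 CPM) were close to the lowest level, and had 7.09%, 13.8% and 7.76% of their exonic bases in only 1 transcript.

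Primary granule genes come before the late genes in maturation. Of the 15 in the table, of 16 listed (Azu1 was not analysed here), 13 (86.7%) were above 1 CPM, 1 was at the lowest level, and the median log2 CPM was 5.96. Calr, a chaperone of every cell, was highest at 1570 CPM. The hexokinase Hk3 was lowest, with 8.77% of its exonic bases in only 1 transcript. Myeloperoxidase, Mpo, had 759 CPM, neutrophil elastase, Elane, 112 CPM, cathepsin G, Ctsg, 81.3 CPM and proteinase 3, Prtn3, 38.3 CPM. Per kilobase the medians were 37.4 for the primary granule genes and 4.92 for the other late neutrophil genes. The lists include genes that other cells express, such as Calr and Lyz2. Both also hold genes with few exonic bases in only 1 transcript, such as Hk3 and Csf3r. The medians therefore do not compare stages of maturation. Prtn3 itself had 37.4 CPM per kilobase beside 6.79 for Cd177.

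**Figure D4:**
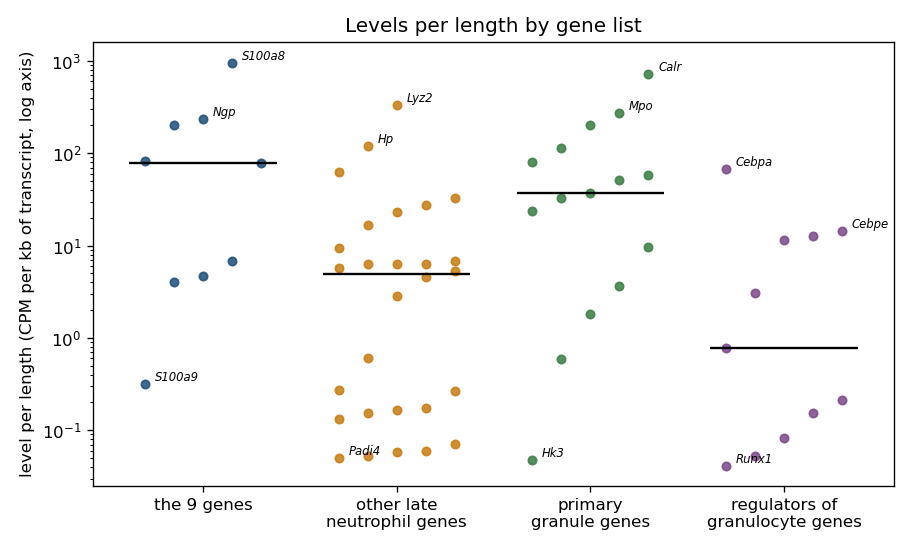
Average level per length (y axis, CPM per kilobase of the longest transcript, log axis) of each gene in 4 lists, with a black bar at each list's median. The medians are 78.7 for the 9 genes, 4.92 for the other late neutrophil genes, 37.4 for the primary granule genes and 0.769 for the regulators; S100a9 lies far below the other 8 of its list.

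Of the 11 regulators of granulocyte genes in the table, of 12 listed (Spi1 was not analysed here), 6 (54.5%) were above 1 CPM and the median log2 CPM was 1.51. Cebpa, which starts granulocyte differentiation and is also a hepatocyte factor, was highest at 179 CPM. Cebpe, the factor of specific granule genes, had 17.8 CPM, with Cebpb at 17.1 CPM and Cebpd at 11.6 CPM. Gfi1, which acts in the same lineage, had 0.445 CPM and 16.9% of its exonic bases in only 1 transcript. Cbfb was at the lowest level, with 14.9% such bases. That share was 18.4% in Cebpa and 54.3% in Runx1 (0.241 CPM).

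The labelled tissue was checked against marker lists. Hepatocyte markers (7 of 8 above 1 CPM, median log2 CPM 11.28, from Serpina1a at -2.44 to Alb at 15.95) and erythroid markers (8 of 9, median 9.44, from Alas2 at -0.51 to Hba-a2 at 15.60) had the highest medians of the marker lists. Serpina1a and Alas2, low beside the other markers of their lists, had 25.5% and 21.3% of their exonic bases in only 1 transcript. In the same lists Apoa2 (2250 CPM) had 8.38% and Tfrc (33.8 CPM) 18.2%, so low shares also occurred at higher levels. Per kilobase Alb stood 32.4-fold above S100a8. Other cells that can express some of the 9 genes were present too: of the macrophage markers 7 of 10 were above 1 CPM (median 5.50, from Emr1 at the lowest level, with 3.0% of its bases in only 1 transcript, to Cd5l at 8.59), and of the monocyte markers 3 of 5 (median 2.05, from Ly6c1 at the lowest level to Ly6c2 at 4.86). Monocytes also express S100a8 and Lyz2, and some macrophages Chi3l3. The part of these cells in the levels above was not tested.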

How the data were processed

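The polyA RNA of 12 livers, 6 per diet of the dam, was sequenced. Per the authors' methods and the submitters' processing notes, reads were trimmed with cutadapt 1.2.1, aligned to mm10 with Subread 1.3.6-p1 and annotated with biomaRt, and the authors compared the diets with edgeR. The counting tool, the normalization and the edgeR version are not given in the sources used here. The authors deposited 1 table in which the column used here is the average log2 CPM over the 12 livers, read as their value with no SD. The 8 other value columns, which hold p-values, raw and adjusted, and the change between diets as a log2 and as a signed linear fold, each with a common and a tagwise dispersion, are the authors' own comparison and were not used. The planned edgeR quasi-likelihood test of diet needs counts of single livers and was not run. The depth of single libraries is unknown here, and columns of samples of other series numbered 0.

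CPM was 2 to the power of the deposited value. Percentiles are among rows above the table's lowest level, with Wilson 95% intervals that cover only the number of rows. Gene positions, transcripts and lengths came from GENCODE M21 (22836 of 30743 rows matched, older symbols through RefSeq synonyms), and start regions from RefSeq (GRCm38.p6, all 9 matched). The 9 genes were all named; from the other lists described, the highest and lowest gene, and any gene a statement turned on. Results of 2 marker lists are not reported here. The genes and lists were chosen with earlier results of these data known. The calculations, tested on simulated data, ran in Python 3.11.15 (scipy 1.17.1, pandas 2.3.3, numpy 2.4.6), and figures were drawn with matplotlib 3.10.9. Rows ranked among all rows, rows above 1 CPM, other transcript lengths and a subtracted lowest level were the alternatives.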

Additional observations from a re-analysis of the deposited data

How the results depend on the processing

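The median percentile of the 9 levels was 92.77 among rows with reads, 95.38 among all rows, 86.04 among rows above 1 CPM (S100a9 is not among these) and 95.72 on CPM per kilobase. Subtracting the table's lowest level took S100a9 from 0.165 to 0.0125 CPM, left the other 8 levels within 1.5-fold and moved 0 of 9 ranks per kilobase. With the shortest protein-coding transcript, 7 of 9 ranks moved (Ltf from 5 to 2, Chi3l3 from 8 to 6, the others by 1), and S100a8 stayed at 1 and S100a9 at 9, while the ratio of S100a8 to Ltf per kilobase went from 12.2 to 1.06. The shortest transcripts of Ltf and Chi3l3 have 233 and 174 bases, against 2743 and 1539 in the longest. Other settings of the diet test (DESeq2, limma, other filters, leaving out livers) need values of single livers and were not run. No paired analysis was possible because no test of diet was made. Precision is limited by averages without a spread over livers.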

Other observations

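In the same liver RNA, of 7 mast cell, basophil and eosinophil markers, 5 were above 1 CPM, with a median log2 CPM of 3.05 (0.2 over rows with reads), from Mcpt8 at -2.66 to Prg2, the eosinophil major basic protein, at 7.01. Among genes that nearly every cell uses, Actb stood at log2 CPM 11.33 (2580 CPM), above all 9 late neutrophil genes. Gapdh stood at 2.38 (5.2 CPM), below 8 of the 9 and above S100a9. Whether the deposited value of Gapdh, or the order of genes around it, gives RNA levels was not tested. The annotation gives Gapdh 13 transcripts and Actb 9, with 50.1% and 24.0% of their exonic bases in only 1 transcript. Of the neutrophil markers fixed for the check of cell types, 6 of 8 in the table were above 1 CPM, with Mpo highest at 9.57 and S100a9 lowest. Of that list, Ltf, Ngp, Camp, S100a8 and S100a9 belong to the 9 genes, and Mpo and Elane to the primary granule genes. Csf3r (0.209 CPM) is one of the other late neutrophil genes. All these values are given above, so the list is no separate check.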
